A study of Mus musculus with 5 samples.

Results

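Laminins are the trimeric glycoproteins that build basement membranes, and integrins are the paired cell surface receptors, one alpha with one beta subunit, through which cells hold on to laminins and other matrix proteins or, on leukocytes, to other cells. The genes described here were all those whose symbol names a laminin chain (Lama, Lamb or Lamc with a digit) or begins like an integrin subunit gene (Itga or Itgb with a digit or one of the letters of the leukocyte subunits), and of 43 such gene entries the 40 with at least 20 UMIs (unique molecular identifiers, each standing for 1 captured transcript) summed over all libraries were kept, out of 27998 genes in the files. They comprised 11 laminin chains, 17 integrin alpha subunits, 8 integrin beta subunits and 4 genes that match by name and are no subunits (Itgb1bp1, Itgb1bp2, Itgb3bp and Itgbl1). The 3 entries left out were Itgad and Itgb2l with 0 UMIs and a second entry under the symbol Itgam with 15 UMIs.

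Single-cell transcriptomes were made from mammary glands of ovariectomized female BALB/cj mice aged 30 weeks, with 1 library per group, to follow what hormone replacement and polybrominated diphenyl ethers (PBDEs, flame retardants that reach the body with food) do to a gland that has lost its ovarian hormones. All mice had been ovariectomized, and treatment began 20 weeks later and lasted 1 week. The OVX mice received the DMSO vehicle alone, the OVX_E2 mice 17β-estradiol at 1 μg per animal each day, and the OVX_E2_P4 mice 17β-estradiol with progesterone at 0.1 mg per animal each day. The OVX_E2_PBDE and OVX_E2_P4_PBDE mice received the same hormones and food that held 7.1 mg/kg of BDE-47, 0.4 mg/kg of BDE-100 and 0.9 mg/kg of BDE-153, while the other mice ate matched food without them. The fourth mammary glands were digested after removal of the lymph node and were loaded without sorting, at about 4000 cells per library. How many mice went into a library is not given in the sources used here. Each group had 1 library, so no difference between groups could be tested. Intervals printed beside ratios below cover counting error only, and ratios printed without one carry no measure of error.

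In the mammary gland, basal (myoepithelial) cells lie on the basement membrane and luminal cells line the duct, as hormone-sensing cells (L-Hor) that carry estrogen and progesterone receptors or as alveolar cells (L-Alv) that prepare for milk. Basal cells anchor to laminins through hemidesmosomes built on integrin α6β4, fibroblasts and vessels add their own laminins, and leukocytes use the β2 and β7 integrins to adhere and migrate. The antigens by which mammary epithelium is sorted are largely integrins: CD49f is Itga6, CD29 is Itgb1, CD61 is Itgb3 and CD49b is Itga2.

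The libraries held 2233 to 3536 barcodes and 19982067 to 42012988 UMIs, of which the 40 genes took 0.127% in OVX and 0.0705% to 0.0826% in the other libraries. Pairs of libraries had 3 to 15 barcodes in common. Cells were clustered without these 40 genes and named from markers that include none of them. This gave 60 to 147 basal-like, 92 to 765 L-Hor-like, 908 to 2565 fibroblast-like, 27 to 72 endothelial-like and 35 to 112 immune cells per library. The 4 libraries other than OVX held 143 to 562 L-Alv-like cells, while in OVX no cluster was named L-Alv-like. The endothelial-like cells also carried pericyte markers (844 to 1308 CPM, the unit explained below, summed over the list), so that a pericyte class could not be set apart and values of this class are those of vessel walls. Between 195 and 494 barcodes per library bore both luminal programs at medians of 15302 to 25546 UMIs and were set aside as putative multiplets. In OVX the 195 such barcodes had an L-Alv marker score of 0.895, the highest of that library, and an L-Hor score of 0.551. The lack of an L-Alv-like class in OVX therefore does not show that alveolar cells were absent. Levels are the UMIs of a gene as a share of all UMIs of the cells of a class in a library, scaled as CPM, and need no division by gene length because each transcript is counted once at its 3′ end.

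By mean level over libraries, 11 of the 40 genes were highest in fibroblast-like, 9 in basal-like, 8 in immune, 7 in endothelial-like, 4 in L-Alv-like and 1 in L-Hor-like cells. The lead over the class with the next highest level was at least 2-fold for 5 of the fibroblast-like genes, 4 of the basal-like, 7 of the immune, 3 of the endothelial-like and 2 of the L-Alv-like. The lead held in every library with both classes for 9 fibroblast-like, 8 basal-like and 7 immune genes. It did so for only 2 endothelial-like genes, 1 L-Alv-like gene and the 1 L-Hor-like gene. These classes were drawn from the same cells, so that the leads are a description and no test. The same counts were not made over all genes. They therefore do not show whether the 40 genes differ from other genes in where they are highest. Markers of a class were also counted outside it. Fibroblast markers in the other classes ran at 1.99% to 9.76% of their level in fibroblast-like cells, and L-Hor markers in fibroblast-like cells at 1.67% to 6.15% of theirs. Between epithelial classes the shares went higher. L-Alv markers in basal-like cells ran at 2.85% to 21.1% of their own level. L-Hor markers ran at 1.07% to 15.7% in basal-like and 3.61% to 14.6% in L-Alv-like cells.

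**Figure D1:**
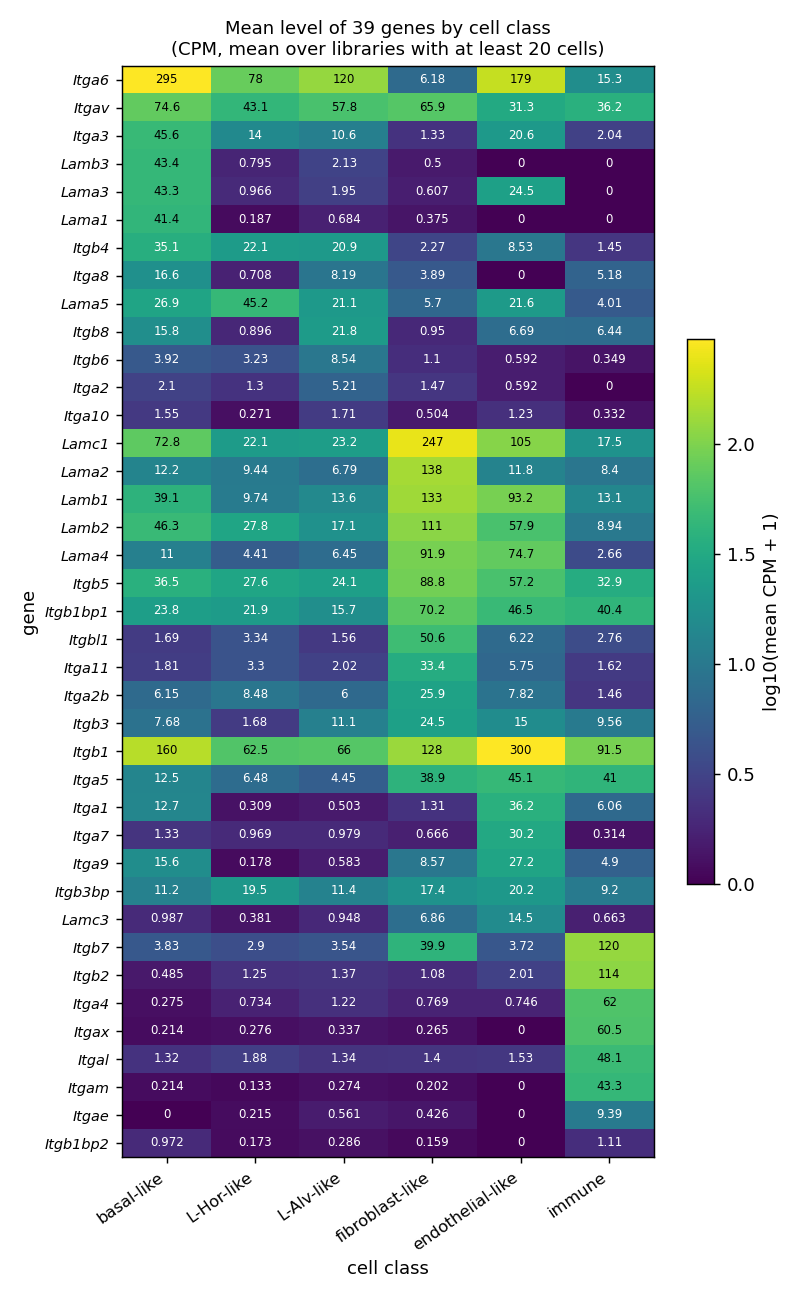
Mean level of 39 of the 40 genes (rows, grouped by the class in which they were highest) in 6 cell classes (columns), in CPM as printed in each cell and coloured by log10(mean CPM + 1). Means are over the 5 libraries, or 4 for L-Alv-like cells. The blocks along the diagonal hold 8 genes for basal-like, 11 for fibroblast-like and 8 for immune cells, and Itgb1 was above 60 CPM in every column.

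Laminin chains differed in the class where their level was highest, and several were shared between classes. Basal-like cells had the highest levels of Lama3 and Lamb3, both chains of the hemidesmosome ligand, at means of 43.3 and 43.4 CPM. They alone held all 3 chains of laminin α1β1γ1, with the scarcest chain at 39.1 CPM. Fibroblast-like cells led for the chains that combine with α2 or α4 (Lama2, Lama4, Lamb1, Lamb2 and Lamc1). The scarcest chain of laminin α4β1γ1 stood at 91.9 CPM in fibroblast-like and at 74.7 CPM in endothelial-like cells. No class held all chains of laminin α5β1γ1 above the 26.9 CPM of basal-like cells.

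Lama3, which encodes the α3 chain, was measured in basal-like cells at 76.4 CPM in OVX, 38.5 in OVX_E2, 46.9 in OVX_E2_P4, 28.1 in OVX_E2_PBDE and 26.3 in OVX_E2_P4_PBDE. The OVX library was the highest and the libraries without PBDE were above those with it. The ratios with PBDEs were 0.73 without and 0.561 with progesterone, neither at 0.5 or below. As set out below, PBDEs cannot be told apart from the library numbering. Basal markers in the basal-like cells stood at 9475 to 13719 CPM without PBDE and at 5293 and 6492 CPM with it. Their part in the Lama3 levels was not tested. Lamb3, the β3 chain (chr1:193207699-193343878 in GRCm38, plus strand), stood in basal-like cells at 61.6 CPM in OVX, 28.9 in OVX_E2, 59 in OVX_E2_P4, 38 in OVX_E2_PBDE and 29.5 in OVX_E2_P4_PBDE. Both chains were highest in OVX and lowest, or within 1 CPM of the lowest, in OVX_E2_P4_PBDE. For Lamb3 and Lama3 the mean in both luminal classes was at most 2.13 CPM, and in fibroblast-like cells Lama3 stood at 0.607 CPM and Lamb3 at 0.50 CPM. Lama3 was also seen in endothelial-like cells of every library, at 31.1 CPM in OVX, 21.5 in OVX_E2, 22 in OVX_E2_P4, 27 in OVX_E2_PBDE and 20.7 in OVX_E2_P4_PBDE, from 4 to 17 UMIs each, while Lamb3 had 0 UMIs there, which allows up to 1.6 CPM over all libraries.

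Lama1, the α1 chain of the first laminin described, had the largest lead of all chains over the next class (60.5 times), with 44.4 CPM in OVX, 41.7 in OVX_E2, 46.2 in OVX_E2_P4, 36.5 in OVX_E2_PBDE and 37.9 in OVX_E2_P4_PBDE in basal-like cells. These 5 values lay close together, with a mean of 41.4 ± 4.13 CPM (SD, n = 5 libraries). In no other class did its mean exceed 0.684 CPM, and 0 UMIs were found in endothelial-like and immune cells, which allows up to 1.6 and 1.27 CPM. Its partners Lamb1 and Lamc1 stood at 39.1 ± 8.64 CPM and 72.8 ± 20.4 CPM in basal-like cells.

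Lama5, the α5 chain of the laminins of mature epithelial and vascular basement membranes, was the 1 gene highest in hormone-sensing cells. It was measured in L-Hor-like cells at 31.1 CPM in OVX, 39.6 in OVX_E2, 62.4 in OVX_E2_P4, 49.5 in OVX_E2_PBDE and 43.3 in OVX_E2_P4_PBDE, above basal-like cells in 5 of 5 libraries. Basal-like cells held it at 4.93 CPM in OVX, 23.5 in OVX_E2, 40.9 in OVX_E2_P4, 27.4 in OVX_E2_PBDE and 37.9 in OVX_E2_P4_PBDE, where the OVX value rests on 2 UMIs. The OVX library was lowest in both classes.

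Among the stromal chains, Lamc1, the γ1 chain common to most laminins, was the most abundant of the 40 genes by UMIs, with 13978 in all. In fibroblast-like cells it stood at 297 CPM in OVX, 242 in OVX_E2, 249 in OVX_E2_P4, 240.1 in OVX_E2_PBDE and 205 in OVX_E2_P4_PBDE. Lama2, the α2 chain of muscle and stromal laminins, stood at 160.4 CPM in OVX, 129 in OVX_E2, 154 in OVX_E2_P4, 137 in OVX_E2_PBDE and 109.8 in OVX_E2_P4_PBDE. Both were highest in OVX and lowest in OVX_E2_P4_PBDE. Lama2 was 11.4 times as high as in the next class, whereas Lama4, the α4 chain of vascular laminins, was nearly as high in vessel walls, with a ratio of means of 1.23. It stood at 104 CPM in OVX, 81.9 in OVX_E2, 91.1 in OVX_E2_P4, 90.7 in OVX_E2_PBDE and 92 in OVX_E2_P4_PBDE in fibroblast-like cells and at 101 CPM in OVX, 64.4 in OVX_E2, 88.1 in OVX_E2_P4, 66.6 in OVX_E2_PBDE and 53.3 in OVX_E2_P4_PBDE in endothelial-like cells. The ranges of the 2 classes overlapped, but within each library fibroblast-like cells were higher (5 of 5). The β1 chain Lamb1 was measured in fibroblast-like cells at 152 CPM in OVX, 128 in OVX_E2, 149 in OVX_E2_P4, 120.1 in OVX_E2_PBDE and 115 in OVX_E2_P4_PBDE, and the β2 chain Lamb2 at 123 CPM in OVX, 92.4 in OVX_E2, 113 in OVX_E2_P4, 110.6 in OVX_E2_PBDE and 116 in OVX_E2_P4_PBDE. Their endothelial-like means were 93.2 ± 5.85 CPM and 57.9 ± 19.3 CPM (SD, n = 5 libraries). Lamc3, the γ3 chain, was low, with 14.5 ± 6.42 CPM in endothelial-like and 6.86 ± 3.65 CPM in fibroblast-like cells.

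**Figure D2:**
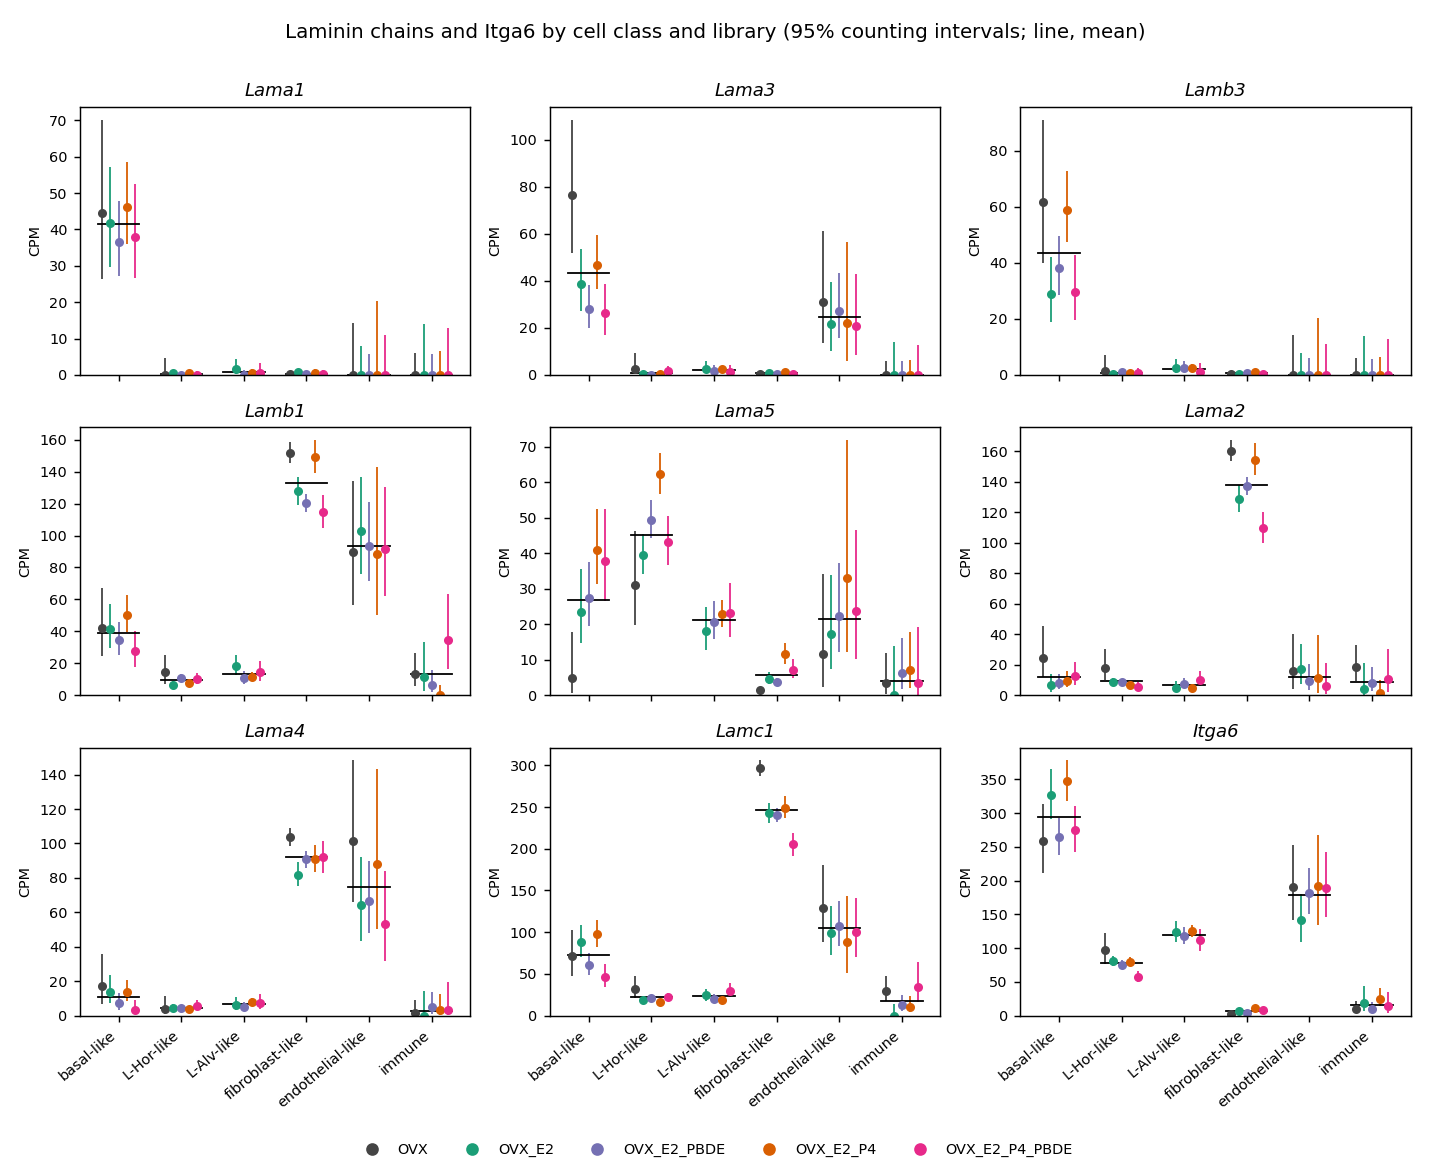
Levels (CPM, linear axes from 0) of 8 laminin chains and Itga6 in the 6 classes, with 1 point per library coloured by treatment, bars for 95% counting intervals and a line at the mean over libraries. Lama1 and Lamb3 stand at or near 0 outside basal-like cells, Lama3 has a second group of points in endothelial-like cells, and Lama2 separates fibroblast-like cells from all others.

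The laminin-binding integrins (α3β1, α6β1, α6β4 and α7β1) were highest in basal-like or endothelial-like cells, as the means of Itga6, Itga3, Itgb4, Itga7 and Itgb1 show. Itga6 (CD49f), the α6 subunit, was highest in basal-like cells with 259 CPM in OVX, 327 in OVX_E2, 347 in OVX_E2_P4, 264 in OVX_E2_PBDE and 275 in OVX_E2_P4_PBDE, above endothelial-like cells in 5 of 5 libraries (179 ± 21.5 CPM, SD, n = 5 libraries). The order went on with L-Alv-like cells at 119.7 ± 6.21 CPM and L-Hor-like cells at 78 ± 14.2 CPM. In fibroblast-like cells Itga6 stood at 2.1% of its basal-like, 5.16% of its L-Alv-like and 7.92% of its L-Hor-like level. Markers of these classes ran there at 0.252% to 0.691% (basal), 3.56% to 5.47% (L-Alv) and 1.67% to 6.15% (L-Hor) of their own levels. Itga3, the α3 subunit, was measured in basal-like cells at 54.2 CPM in OVX, 39.6 in OVX_E2, 49.6 in OVX_E2_P4, 37.3 in OVX_E2_PBDE and 47.4 in OVX_E2_P4_PBDE, with a mean 2.22 times the endothelial-like mean. The endothelial-like values were widely spread, from 3.89 to 49.6 CPM (20.6 ± 17.1 CPM, SD, n = 5 libraries). The ranges of these 2 classes overlapped, with basal-like cells higher in 5 of 5 libraries. Itgb4, the β4 subunit of hemidesmosomes, stood at 35.1 ± 6.36 CPM in basal-like cells and at 22.1 CPM in hormone-sensing and 20.9 CPM in alveolar cells, so that its basal lead was smaller than that of its partner Itga6. Itga7, the α7 subunit known from muscle, was measured in endothelial-like cells at 35 CPM in OVX, 23.6 in OVX_E2, 33 in OVX_E2_P4, 44.4 in OVX_E2_PBDE and 14.8 in OVX_E2_P4_PBDE, and in no other class did its mean exceed 1.33 CPM.

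Itgb1 (CD29), the β1 subunit that pairs with most alpha subunits, was found in every class. Endothelial-like cells held it at 315 CPM in OVX, 219 in OVX_E2, 347 in OVX_E2_P4, 306 in OVX_E2_PBDE and 311 in OVX_E2_P4_PBDE. Basal-like cells held it at 141 CPM in OVX, 151 in OVX_E2, 204 in OVX_E2_P4, 155 in OVX_E2_PBDE and 152 in OVX_E2_P4_PBDE, below endothelial-like cells in each library. Fibroblast-like cells followed with 128 ± 9.0 CPM, immune cells with 91.5 ± 16.2 CPM, L-Alv-like cells with 66 ± 5.19 CPM and hormone-sensing cells with 62.5 ± 11.7 CPM (SD, n = 5 libraries, or 4 for L-Alv-like). The ranges of the last 2 overlapped.

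The collagen-binding alpha subunits were highest in 3 classes, with Itga2 and Itga10 both in L-Alv-like cells. Itga11, a fibroblast receptor for fibrillar collagen, stood at 47.8 CPM in OVX, 29.8 in OVX_E2, 27.3 in OVX_E2_P4, 31.8 in OVX_E2_PBDE and 30.3 in OVX_E2_P4_PBDE in fibroblast-like cells. OVX was the highest, and the other 4 libraries lay within 27.3 to 31.8 CPM. Itga1, a receptor for basement membrane collagen, was measured in endothelial-like cells at 11.7 CPM in OVX, 27.9 in OVX_E2, 77.1 in OVX_E2_P4, 31.7 in OVX_E2_PBDE and 32.6 in OVX_E2_P4_PBDE, from 3 to 20 UMIs a library. Itga2 (CD49b) was highest in L-Alv-like cells at 5.0 CPM in OVX_E2, 5.15 in OVX_E2_P4, 6.53 in OVX_E2_PBDE and 4.15 in OVX_E2_P4_PBDE, and above basal-like cells in 4 of 4 libraries. Itga10, a cartilage collagen receptor, had 107 UMIs in all and at most 1.71 CPM as a class mean (L-Alv-like, with 0.50 CPM in OVX_E2, 0.965 in OVX_E2_P4, 2.4 in OVX_E2_PBDE and 2.96 in OVX_E2_P4_PBDE), and 6 of 10 other settings placed its maximum in basal-like or endothelial-like cells. Itga1 and Itga10 share their strand and part of their span with another annotated coding gene.

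The receptors for RGD-containing ligands such as fibronectin and osteopontin were spread more widely. Itgav, the αv subunit, was measured at 59.2 CPM in OVX, 67.4 in OVX_E2, 101 in OVX_E2_P4, 71.7 in OVX_E2_PBDE and 73.7 in OVX_E2_P4_PBDE in basal-like cells and at 52.8 CPM in OVX, 68.4 in OVX_E2, 85.6 in OVX_E2_P4, 54.6 in OVX_E2_PBDE and 68.1 in OVX_E2_P4_PBDE in fibroblast-like cells. The 2 classes overlapped, with basal-like cells higher in 4 of 5 libraries and a ratio of means of 1.13. Itgb5, one of its partners, led in fibroblast-like cells at 88.8 ± 9.24 CPM (SD, n = 5 libraries), and Itgb3 (CD61) there at 20.5 CPM in OVX, 31.3 in OVX_E2, 24.5 in OVX_E2_P4, 22 in OVX_E2_PBDE and 24.3 in OVX_E2_P4_PBDE. Itga5, the fibronectin receptor subunit, was measured in endothelial-like cells at 35 CPM in OVX, 38.6 in OVX_E2, 55.1 in OVX_E2_P4, 52.3 in OVX_E2_PBDE and 44.4 in OVX_E2_P4_PBDE, next to means of 41 CPM in immune and 38.9 CPM in fibroblast-like cells. These 3 classes could not be put in order, since 3 of 10 other settings placed its maximum in immune cells. Itga8, the nephronectin receptor subunit, was highest in basal-like cells at 16.6 ± 5.76 CPM and was seen in L-Alv-like cells at 8.19 ± 2.44 CPM.

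Itga2b, known as the platelet subunit αIIb, was highest in fibroblast-like cells, at 10.4 CPM in OVX, 28.2 in OVX_E2, 39.1 in OVX_E2_P4, 22.2 in OVX_E2_PBDE and 29.5 in OVX_E2_P4_PBDE. OVX was the lowest library there, and in OVX the L-Hor-like level (12.9 CPM) was above it. Of the platelet markers, Ppbp had 0 UMIs (which allows up to 0.0675 CPM) and Pf4 at most 1.78 CPM in fibroblast-like cells of any library. Itga9, a receptor subunit for tenascin and VCAM1, was measured in endothelial-like cells at 38.9 CPM in OVX, 36.5 in OVX_E2, 16.5 in OVX_E2_P4, 20.6 in OVX_E2_PBDE and 23.7 in OVX_E2_P4_PBDE, with 15.6 CPM in basal-like cells as the next mean. OVX and OVX_E2 were the highest libraries, but the counts were small, and the OVX_E2_P4 value rests on 3 UMIs. Endothelial-like cells were above basal-like cells for Itga9 in 4 of 5 libraries.

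Some integrin subunits differed in level between the 2 luminal classes, and others differed little. The same ratios were not counted over all genes. They therefore do not show whether these genes differ more between the 2 classes than other genes do. Within each of the 4 libraries that had both, the level in L-Alv-like over that in L-Hor-like cells was 32 in OVX_E2, 13.7 in OVX_E2_P4, 21.1 in OVX_E2_PBDE and 17.3 in OVX_E2_P4_PBDE for Itgb8, a partner of αv. It was 8.79 in OVX_E2, 11.2 in OVX_E2_P4, 10.1 in OVX_E2_PBDE and 6.5 in OVX_E2_P4_PBDE for Itga8 and 10.1 in OVX_E2, 8.85 in OVX_E2_P4, 5.81 in OVX_E2_PBDE and 7.58 in OVX_E2_P4_PBDE for Itgb3 (CD61). All 4 counting intervals lay above 1 for each of these 3 genes. For Itga6 the ratios were 1.54 in OVX_E2, 1.57 in OVX_E2_P4, 1.57 in OVX_E2_PBDE and 1.95 in OVX_E2_P4_PBDE, again with all 4 intervals above 1. Itga2 (CD49b) and Itgb6, the epithelial partner of αv, had 3 of 4 intervals above 1, with ratios of 3.03 to 8.37 and 2.28 to 5.23. In the opposite direction, the laminin chain Lama5 was lower in L-Alv-like cells, with ratios of 0.366 to 0.535 and all 4 intervals below 1. Itgb1 had ratios of 1.05 to 1.21, and each of its 4 intervals included 1. Itgav had ratios of 1.25 to 1.58, with all 4 intervals above 1. Ratios ran from 0.659 to 1.17 for Itgb4 and from 0.715 to 1.01 for Itgb5, each with 1 interval below 1. For Itga2b they ran from 0.609 to 1.01, with 0 intervals above or below 1.

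In CPM, Itgb8 was measured in L-Alv-like cells at 25.5 CPM in OVX_E2, 23.8 in OVX_E2_P4, 23.7 in OVX_E2_PBDE and 14.2 in OVX_E2_P4_PBDE, and Itgb6 at 12.5 CPM in OVX_E2, 8.85 in OVX_E2_P4, 6.87 in OVX_E2_PBDE and 5.93 in OVX_E2_P4_PBDE. The OVX_E2_P4_PBDE library was lowest for both, and its L-Alv-like cells included cycling cells. Basal-like cells held Itgb8 at a mean of 15.8 CPM and Itgb6 at 3.92 CPM. For each gene L-Alv-like cells were higher in 3 of 4 libraries. Itgb3 stood in L-Alv-like cells at 10 CPM in OVX_E2, 13 in OVX_E2_P4, 13.1 in OVX_E2_PBDE and 8.3 in OVX_E2_P4_PBDE, against 0.996 to 2.59 CPM in L-Hor-like cells. Basal-like cells held it at 12.3 CPM in OVX, 6.42 in OVX_E2, 8.04 in OVX_E2_P4, 8.43 in OVX_E2_PBDE and 3.16 in OVX_E2_P4_PBDE. Itgb3 in fibroblast-like cells was thus above every epithelial class. In the mixed luminal barcodes that were set aside, Itga6 stood at 112 CPM, Itgb8 at 13 CPM and Lama5 at 45.4 CPM over all libraries, the first 2 between the levels of the luminal classes.

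**Figure D3:**
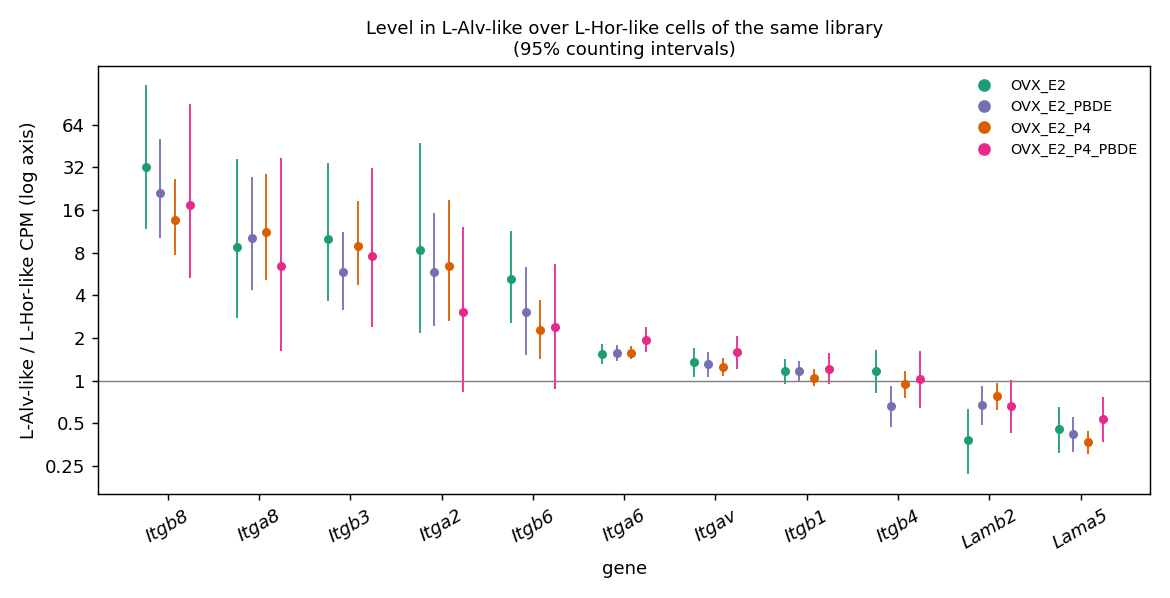
Ratio of the CPM in L-Alv-like to that in L-Hor-like cells of the same library (log axis) for 11 genes, with 1 point for each of the 4 libraries that held both classes and bars for 95% counting intervals. Itgb8, Itga8 and Itgb3 lie wholly above 1, Itgb1 spans 1, and Lama5 lies wholly below 1.

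Immune cells carried the leukocyte integrins. Itgb2, the β2 subunit (CD18) of the leukocyte receptors, was measured in immune cells at 136 CPM in OVX, 121 in OVX_E2, 94.2 in OVX_E2_P4, 87.9 in OVX_E2_PBDE and 128 in OVX_E2_P4_PBDE, 56.6 times the next class. Itgb7, the β7 subunit of gut-homing and intraepithelial receptors, stood at 136 CPM in OVX, 118 in OVX_E2, 101 in OVX_E2_P4, 139.6 in OVX_E2_PBDE and 104 in OVX_E2_P4_PBDE. Itga4, the α4 subunit that pairs with β1 or β7, stood at 78 CPM in OVX, 87.2 in OVX_E2, 55.8 in OVX_E2_P4, 43.9 in OVX_E2_PBDE and 45 in OVX_E2_P4_PBDE. All 3 were above every other class in each library. Itgal (CD11a) was measured at 66.4 CPM in OVX, 26.5 in OVX_E2, 59.3 in OVX_E2_P4, 50.2 in OVX_E2_PBDE and 38.1 in OVX_E2_P4_PBDE. Itgam (CD11b) stood at 66.4 CPM in OVX, 37.9 in OVX_E2, 33.2 in OVX_E2_P4, 40.8 in OVX_E2_PBDE and 38.1 in OVX_E2_P4_PBDE. It shares its strand and part of its span with Gm49368, the second entry under its symbol, left out with 15 UMIs. Itgax (CD11c) stood at 51.5 CPM in OVX, 64.5 in OVX_E2, 57.6 in OVX_E2_P4, 73.7 in OVX_E2_PBDE and 55.4 in OVX_E2_P4_PBDE. OVX was highest for Itgal and Itgam and lowest for Itgax. The immune cells differed in make-up between libraries. T and natural killer (T/NK) cells numbered 34 in OVX, 0 in OVX_E2, 33 in OVX_E2_P4, 9 in OVX_E2_PBDE and 11 in OVX_E2_P4_PBDE. The part of this in the levels of each library was not tested. Itgae, the αE subunit (CD103), was the lowest of this group at 3.46 to 19.2 CPM, and Itgb1bp2 had 38 UMIs in all and no stable class.

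The immune cells were split, over all libraries together, into 153 myeloid, 137 dendritic, 87 T/NK and 14 B or plasma cells. A further 122 immune barcodes in 3 mixed clusters, with high fibroblast or epithelial markers, were left out of every class. Fibroblast markers ran there at 12.2% to 92.9% of their fibroblast-like level. In the cluster with 12.2%, epithelial markers ran at 59.8% of their L-Hor-like level. Itgb2 was shared, with 111.4 CPM (95% counting interval 90.3 to 136) in myeloid, 125 CPM (95% counting interval 103 to 150.1) in dendritic and 99.8 CPM (95% counting interval 73.8 to 132) in T/NK cells. Its alpha partners were not: Itgax reached 107 CPM (95% counting interval 86.2 to 131) in myeloid and 8.15 CPM (95% counting interval 2.22 to 20.9) in T/NK cells. Itgam followed the same order with 76.9 CPM (95% counting interval 59.6 to 97.7) and 14.3 CPM (95% counting interval 5.73 to 29.4). Itgal had the reverse order, at 122 CPM (95% counting interval 93.3 to 157) in T/NK and 27.6 CPM (95% counting interval 17.7 to 41) in myeloid cells. Itgb7 was highest in dendritic cells at 212 CPM (95% counting interval 183 to 244), then T/NK cells at 143 CPM (95% counting interval 111.1 to 180.1), and stood at 31 CPM (95% counting interval 20.4 to 45.1) in myeloid cells. Outside the leukocyte group, Itgb5 was seen in myeloid cells at 81.5 CPM (95% counting interval 63.7 to 103) and in dendritic cells at 3.31 CPM (95% counting interval 0.683 to 9.68). Itga5 stood at 64.3, 38.7 and 8.15 CPM in myeloid, dendritic and T/NK cells. These intervals cover counting error only, and libraries were summed because single libraries held few cells of a subset.

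**Figure D4:**
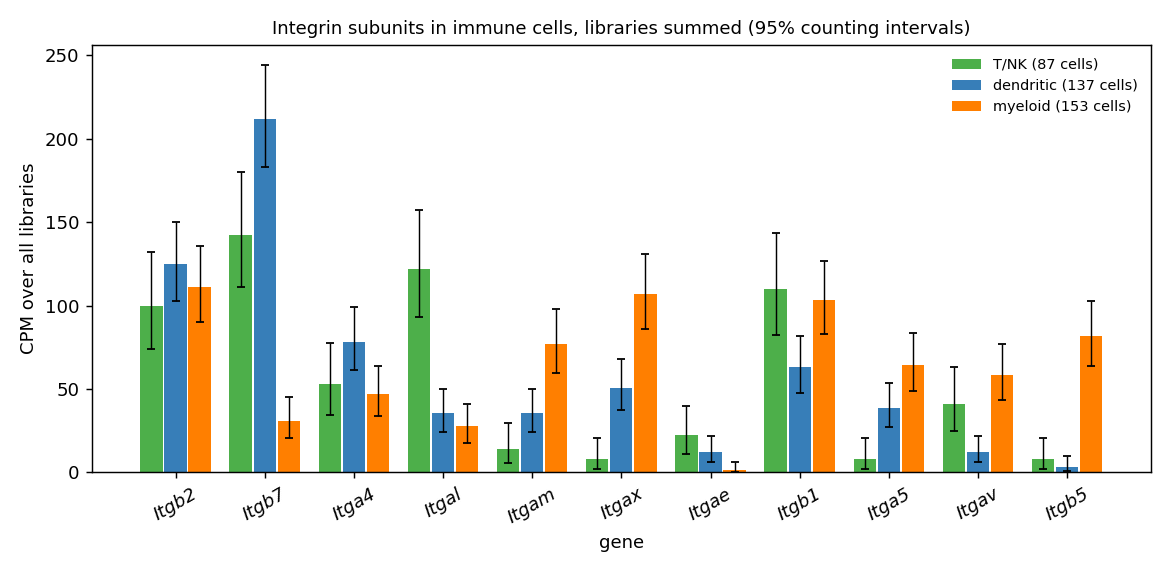
Levels (CPM over all libraries together, axis from 0) of 11 integrin subunits in T/NK (87 cells), dendritic (137 cells) and myeloid cells (153 cells), with bars for 95% counting intervals. Itgb2 has overlapping intervals in the 3 subsets, Itgal is highest in T/NK, Itgb7 in dendritic and Itgam, Itgax and Itgb5 in myeloid cells.

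The promoters of leukocyte integrin genes are shown because these genes led together in immune cells but differed between its subsets. Promoters were found for 26 of the 40 genes in the RefSeq table (GRCm38.p6), 4 of them among those highest in immune cells, and the 250 bases before each of these 4 starts are shown 5′ to 3′ on the strand of the gene, with GAGGAA or its reverse complement TTCCTC, the core letters bound by the myeloid factor PU.1, in capitals. They lie at chr7:128062390-128062639 (plus strand) for Itgam, at chr7:128129300-128129549 (plus strand) for Itgax, at chr2:79255176-79255425 (plus strand) for Itga4 and at chr15:102231936-102232185 (minus strand) for Itgb7.
Itgam: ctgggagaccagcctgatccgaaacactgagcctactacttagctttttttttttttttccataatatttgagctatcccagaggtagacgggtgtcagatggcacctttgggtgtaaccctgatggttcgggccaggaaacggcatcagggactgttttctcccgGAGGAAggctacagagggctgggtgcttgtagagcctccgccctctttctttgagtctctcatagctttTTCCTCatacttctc
Itgax: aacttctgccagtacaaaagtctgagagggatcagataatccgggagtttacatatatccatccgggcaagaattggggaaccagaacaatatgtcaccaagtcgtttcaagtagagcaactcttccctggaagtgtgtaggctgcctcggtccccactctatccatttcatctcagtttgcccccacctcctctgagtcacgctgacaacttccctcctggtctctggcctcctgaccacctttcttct
Itga4: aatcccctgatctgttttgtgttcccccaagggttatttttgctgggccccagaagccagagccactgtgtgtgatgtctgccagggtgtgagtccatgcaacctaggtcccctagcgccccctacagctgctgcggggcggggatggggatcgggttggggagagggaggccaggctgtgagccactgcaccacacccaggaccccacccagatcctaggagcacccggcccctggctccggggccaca
Itgb7: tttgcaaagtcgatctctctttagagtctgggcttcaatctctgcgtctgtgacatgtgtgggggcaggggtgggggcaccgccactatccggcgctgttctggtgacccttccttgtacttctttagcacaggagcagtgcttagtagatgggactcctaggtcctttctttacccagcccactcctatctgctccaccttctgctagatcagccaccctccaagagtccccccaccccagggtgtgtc
The letters occurred 2 times before Itgam and in none of the other 3 windows, and 23.3% of all 32851 promoters of the table held them in the same window. A match is a string of letters and not a bound site, and in the same window 13 of the 29 listed starts of the matched genes (44.8%) held the letters.

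Itgb7 was also seen outside immune cells. In fibroblast-like cells it was measured at 74.3 CPM in OVX, 26.7 in OVX_E2, 27.2 in OVX_E2_P4, 39.4 in OVX_E2_PBDE and 31.7 in OVX_E2_P4_PBDE, or 33.3% of its immune level on average, with 1021 UMIs in OVX alone. Hematopoietic markers in the same cells ran at 0.345% to 1.14% of their immune level, and Itgb2 stood at 0.71 to 1.24 CPM there.

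The genes that match by name but encode no subunit were Itgb1bp1, a cytoplasmic partner of β1 integrin, at 70.2 ± 4.72 CPM in fibroblast-like cells, Itgbl1, a secreted protein with integrin-like repeats, at 50.6 ± 16.4 CPM there, and Itgb3bp, a centromere protein, at 20.2 ± 5.32 CPM in endothelial-like and 19.5 ± 1.26 CPM in L-Hor-like cells (SD, n = 5 libraries). Itgbl1 was highest in OVX, at 77.8 CPM against 37.4 to 53.4 CPM in the other libraries.

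The partners of laminins and integrins were counted from lists of known partners. No share over all genes was computed beside these counts, so they describe the lists only. Of 13 basement membrane partners, 5 were highest in endothelial-like cells (Col4a1, Col4a2, Hspg2, Col18a1, Nid2), 5 in fibroblast-like cells (Nid1, Fn1, Sparc, Fbln1, Fbln2) and 3 in basal-like cells (Agrn, Col4a5, Col4a6). Col4a1, the main collagen IV chain, stood at 450.2 ± 53.5 CPM in endothelial-like, 329 ± 85.4 CPM in fibroblast-like and 219.6 ± 109 CPM in basal-like cells, and Nid1, which links laminin to collagen IV, at 666 ± 64.3 CPM in fibroblast-like cells. Among hemidesmosome genes, Col17a1, the transmembrane collagen that partners α6β4, was measured at 81 ± 28.8 CPM in basal-like cells and at most 1.69 CPM elsewhere. Of 17 adaptors and kinases, 10 were highest in endothelial-like cells, and the 3 kindlins, which activate integrins, each had their own class: Fermt1 basal-like (70.7 ± 12.7 CPM), Fermt2 endothelial-like (257 ± 10.5 CPM) and Fermt3 immune (47.1 ± 8.05 CPM). Of 7 leukocyte integrin ligands, 4 were highest in endothelial-like cells (Icam2, Jam2, Jam3 and, at 0.429 CPM, Madcam1), Icam1 in basal-like cells at 269 ± 174 CPM and Vcam1 in immune cells at 47.8 ± 29.6 CPM. The αv ligands Spp1 (osteopontin) and Mfge8 were highest in L-Alv-like cells, at 1666 ± 529.7 CPM and 1486 ± 310.2 CPM (SD, n = 4 libraries for this class and 5 for the others). Among 8 other laminin receptors and tetraspanins, Bcam, a receptor for the α5 chain, was highest in endothelial-like cells at 381 ± 50.6 CPM.

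Treatments were then compared within a class. A gene was compared where both libraries had at least 20 cells of the class and together at least 50 UMIs of the gene, and a pair of gene and class is called past 2-fold at a ratio of CPM of at least 2 or at most 0.5. With 1 library per group these ratios compare libraries, and both PBDE libraries carry library numbers apart from the others, so that PBDEs and this numbering cannot be told apart. Fewer or more cells of a subtype within a class and less or more RNA per cell cannot be told apart either.

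With 17β-estradiol (OVX_E2 against OVX), 7 of 59 pairs were past 2-fold, 3 higher and 4 lower, which is 11.9% beside 7.17% of the 25066 pairs of all genes. For all genes 2.79% were higher and 4.38% lower, and the median log2 ratio was -0.19 for the 59 pairs and -0.05 for all. Itgb7 in fibroblast-like cells stood at 74.3 CPM in OVX and 26.7 CPM in OVX_E2, a ratio of 0.359 (95% counting interval 0.305 to 0.422), against 27.2 to 39.4 CPM in the other hormone-treated libraries. Itga2b there was higher, with 10.4 CPM in OVX and 28.2 CPM in OVX_E2, a ratio of 2.71 (95% counting interval 2.17 to 3.39). For both genes OVX lay outside the range of the other 4 libraries, and these were the 2 pairs past 2-fold at a minimum of 100 UMIs. Itga6 in fibroblast-like cells stood at 2.11 CPM in OVX, 7.31 in OVX_E2, 10.8 in OVX_E2_P4, 3.03 in OVX_E2_PBDE and 7.62 in OVX_E2_P4_PBDE. Lama5 in fibroblast-like cells stood at 1.38 CPM in OVX, 4.63 in OVX_E2, 11.5 in OVX_E2_P4, 3.8 in OVX_E2_PBDE and 7.15 in OVX_E2_P4_PBDE. OVX was the lowest library for both. Itga6 had a ratio of 3.46 (95% counting interval 2.15 to 5.69) from 29 and 49 UMIs, and Lama5 one of 3.35 (95% counting interval 1.83 to 6.27) from 19 and 31 UMIs. Basal and luminal markers summed in the same fibroblast-like cells stood at 434 CPM in OVX and 824 CPM in OVX_E2, lowest in OVX as well, and their part in the levels of Itga6 and Lama5 was not tested.

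The other 3 lower pairs rested on fewer UMIs. Lamb2 was measured in basal-like cells at 71.5 CPM in OVX, 35.3 in OVX_E2, 57 in OVX_E2_P4, 43.6 in OVX_E2_PBDE and 24.2 in OVX_E2_P4_PBDE. Lama2 was measured in L-Hor-like cells at 18.1 CPM in OVX, 8.36 in OVX_E2, 6.82 in OVX_E2_P4, 8.43 in OVX_E2_PBDE and 5.48 in OVX_E2_P4_PBDE. OVX was the highest library for both, as it was for Lamb3 in basal-like cells. The ratios were 0.469 (95% counting interval 0.262 to 0.842) for Lamb3, 0.494 (95% counting interval 0.291 to 0.843) for Lamb2 and 0.462 (95% counting interval 0.247 to 0.915) for Lama2. With TMM scaling, a trimmed mean that leaves the most unequal genes out of the library totals and moves the L-Hor-like ratios of all genes by 0.33 on the log2 scale, they became 0.517, 0.544 and 0.582 and were no longer past 2-fold, while Itga3 in L-Hor-like cells came to 2.11 (from 1.67), so that 4 pairs were higher and 1 lower. Fibroblast markers in L-Hor-like cells stood at 2569.7 CPM in OVX, 1717 in OVX_E2, 1104 in OVX_E2_P4, 1648 in OVX_E2_PBDE and 1244 in OVX_E2_P4_PBDE. In basal-like cells they stood at 2731 CPM in OVX, 1332 in OVX_E2, 1202 in OVX_E2_P4, 1006 in OVX_E2_PBDE and 864 in OVX_E2_P4_PBDE. OVX was highest in both, and the part of this in the lower values of Lama2 and Lamb2 was not tested. Among the basement membrane partners in L-Hor-like cells, 4 of 10 compared were at least 2-fold lower and 0 higher (Col4a1 0.462, Col4a2 0.246, Hspg2 0.355 and Fbln1 0.263), beside 6.51% of all genes compared there. With TMM scaling Col4a1 came to 0.582, and 3 of 10 were lower and 1 higher. In basal-like cells 2 of 9 were higher, Col4a1 at 2.79 and Col18a1 at 3.26, beside 5.66% of all genes (4 of 9 with TMM scaling), and of the 4 hemidesmosome genes Dst (0.438) and Cd151 (0.419) were lower, beside 7.8% of all genes. Over all classes, of 39 pairs of basement membrane partners 3 were higher and 6 were lower. Of 22 pairs of other integrin ligands 1 was higher and 4 were lower.

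Progesterone on top of 17β-estradiol (OVX_E2_P4 against OVX_E2) gave 5 of 82 pairs past 2-fold, 4 higher and 1 lower, which is 6.1% beside 2.3% of 35319 pairs of all genes (1.25% higher and 1.05% lower). Lamb2 was measured in L-Alv-like cells at 9.0 CPM in OVX_E2, 22.7 in OVX_E2_P4, 18.9 in OVX_E2_PBDE and 17.8 in OVX_E2_P4_PBDE. OVX_E2 was the lowest and OVX_E2_P4 the highest library, at a ratio of 2.52 (95% counting interval 1.54 to 4.37). Lamb3 in basal-like cells was higher at 2.04 (95% counting interval 1.31 to 3.27). Itga8 in fibroblast-like cells stood at 2.91 CPM in OVX, 3.28 in OVX_E2, 7.28 in OVX_E2_P4, 2.89 in OVX_E2_PBDE and 3.1 in OVX_E2_P4_PBDE, with OVX_E2_P4 the highest library. There the ratio was 2.49 (95% counting interval 1.6 to 3.96) for Lama5 and 2.22 (95% counting interval 1.29 to 3.91) for Itga8. Summed basal and luminal markers there stood at 824 CPM in OVX_E2 and 1444 CPM in OVX_E2_P4. The lower pair was Itgb3bp in L-Alv-like cells, at 15.5 CPM in OVX_E2, 7.72 in OVX_E2_P4, 12.4 in OVX_E2_PBDE and 10.1 in OVX_E2_P4_PBDE, where OVX_E2 was the highest. Its ratio was 0.498 (95% counting interval 0.311 to 0.809). With TMM scaling it was 0.552 and Itga2b in L-Alv-like cells came to 2.05 (from 1.85), so that 5 pairs were higher and 0 lower. Of the basement membrane partners, 0 of 54 pairs of gene and class were past 2-fold, and of the integrin adaptors 1 of 56 was lower. Among other integrin ligands 6 of 31 were higher and 1 lower (6 and 0 with TMM scaling), and Spp1 made 5 of the 6. Its ratio was 2.01 in L-Alv-like cells, where its level was highest (2280 CPM in OVX_E2_P4). In that library it stood at 136 CPM in immune, 98.9 in fibroblast-like, 83 in L-Hor-like and 69 in basal-like cells. L-Alv markers ran at 3.56% to 5.47% of their own level in fibroblast-like and at 1.35% to 3.53% in L-Hor-like cells. They ran at 1.3% to 3.19% in immune and 2.85% to 21.1% in basal-like cells, and the part of this in the Spp1 ratios was not tested.

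In the presence of PBDEs (OVX_E2_P4_PBDE against OVX_E2_PBDE), 1 of 80 pairs was past 2-fold, which is 1.25% beside 2.9% of 33987 pairs of all genes (1.84% higher and 1.06% lower). This was Itga6 in fibroblast-like cells, at 2.52 (95% counting interval 1.54 to 4.07) from 43 and 32 UMIs, where the summed basal and luminal markers stood at 691 CPM and 1410 CPM. The genes above had ratios of 0.941 (Lamb2, L-Alv-like), 0.777 (Lamb3, basal-like), 1.88 (Lama5, fibroblast-like) and 1.07 (Itga8, fibroblast-like). Of 53 pairs of basement membrane partners 1 was higher and 3 were lower. Of 29 pairs of other integrin ligands 1 was higher and 0 were lower. Spp1 in L-Alv-like cells stood at 1923 CPM in OVX_E2_PBDE and 1327 CPM in OVX_E2_P4_PBDE, lower in the library with progesterone but not past 2-fold. The L-Alv-like cells of OVX_E2_P4_PBDE included cycling cells, and their part in this value was not tested. The 2 progesterone comparisons have no library in common, and 0 of 76 pairs compared in both were past 2-fold in 1 direction in both, beside 0.282% of 31906 pairs of all genes. Past 1.5-fold in both were 2 pairs, Lama5 higher in fibroblast-like cells at 2.49 and 1.88, and Itga9 lower in fibroblast-like cells at 0.611 and 0.658. These are 2 of the 76 pairs, beside 1.77% of the 31906 pairs of all genes.

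PBDEs added to 17β-estradiol (OVX_E2_PBDE against OVX_E2) gave 3 of 82 pairs past 2-fold, which is 3.66% beside 2.43% of 35454 pairs of all genes (0.945% higher and 1.49% lower). Lamb2 was measured in endothelial-like cells at 54.5 CPM in OVX, 25.7 in OVX_E2, 71.6 in OVX_E2_P4, 66.6 in OVX_E2_PBDE and 71.1 in OVX_E2_P4_PBDE. OVX_E2 was the lowest library, as it was in L-Alv-like cells. The ratios were 2.59 (95% counting interval 1.34 to 5.4) in endothelial-like and 2.1 (95% counting interval 1.21 to 3.8) in L-Alv-like cells, both against an OVX_E2 library with 12 and 18 UMIs. Itga6 in fibroblast-like cells was lower at 0.414 (95% counting interval 0.268 to 0.637), with summed basal and luminal markers at 824 CPM in OVX_E2 and 691 CPM in OVX_E2_PBDE. Of 55 pairs of basement membrane partners 3 were higher and 1 was lower. Of 28 pairs of other integrin ligands 2 were higher and 1 was lower.

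When PBDEs were added to both hormones (OVX_E2_P4_PBDE against OVX_E2_P4), 5 of 78 pairs were past 2-fold and all 5 were lower, which is 6.41% beside 4.26% of 33644 pairs of all genes (1.67% higher and 2.59% lower). Lamc1 stood in basal-like cells at 71.5 CPM in OVX, 87.8 in OVX_E2, 97.2 in OVX_E2_P4, 61.2 in OVX_E2_PBDE and 46.3 in OVX_E2_P4_PBDE, and Lamc3 in fibroblast-like cells at 4.15 CPM in OVX, 6.72 in OVX_E2, 13.1 in OVX_E2_P4, 5.78 in OVX_E2_PBDE and 4.53 in OVX_E2_P4_PBDE. For both, OVX_E2_P4 was the highest library. In basal-like cells the lower ratios were Lamb2 at 0.425 (95% counting interval 0.256 to 0.68), Lamc1 at 0.477 (95% counting interval 0.332 to 0.672) and Lamb3 at 0.50 (95% counting interval 0.314 to 0.772), the last 0.521 with TMM scaling, 3 of 15 genes beside 4.14% of all genes in that class. In fibroblast-like cells they were Lamc3 at 0.344 (95% counting interval 0.196 to 0.576) and Itga8 at 0.425 (95% counting interval 0.209 to 0.81). Lamb3 in basal-like cells was past 2-fold against both OVX_E2 and OVX_E2_P4_PBDE, and both comparisons use the same OVX_E2_P4 library. Over all classes, of 32 pairs of other integrin ligands 2 were higher (Spp1 in basal-like and Tgfb1 in L-Alv-like cells). The 7 lower pairs were of Spp1, Postn, Tnc and Npnt, each in 1 or more classes. Of 53 pairs of basement membrane partners 1 was higher and 5 were lower. Of 12 of these partners compared in basal-like cells 0 were higher and 4 were at least 2-fold lower: Col4a1 (0.476), Col18a1 (0.456), Hspg2 (0.418) and Sparc (0.417). Basal markers in these cells stood at 13719 CPM in OVX, 10283 in OVX_E2, 9475 in OVX_E2_P4, 6492 in OVX_E2_PBDE and 5293 in OVX_E2_P4_PBDE. L-Alv markers in the same cells stood at 69 CPM in OVX, 117 in OVX_E2, 327 in OVX_E2_P4, 923 in OVX_E2_PBDE and 901 in OVX_E2_P4_PBDE. The 2 PBDE libraries were thus lowest for basal and highest for L-Alv markers in the basal-like class, and the part of this in the lower laminin values was not tested.

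For the 2 PBDE comparisons, which have no library in common, 0 of 73 pairs compared in both were past 2-fold in 1 direction in both, beside 0.475% of 31347 pairs of all genes. The members lower in OVX_E2_P4_PBDE had ratios of 1.23 (Lamb2), 1.31 (Lamb3) and 0.697 (Lamc1) in basal-like cells in the comparison without progesterone, and 0.86 (Lamc3) and 0.88 (Itga8) in fibroblast-like cells. Of the sorting antigens, Itga6 in basal-like cells spanned 259 to 347 CPM and Itgb1 spanned 141 to 204 CPM over all 5 libraries, with no ratio of either past 2-fold in an epithelial class.

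**Figure D5:**
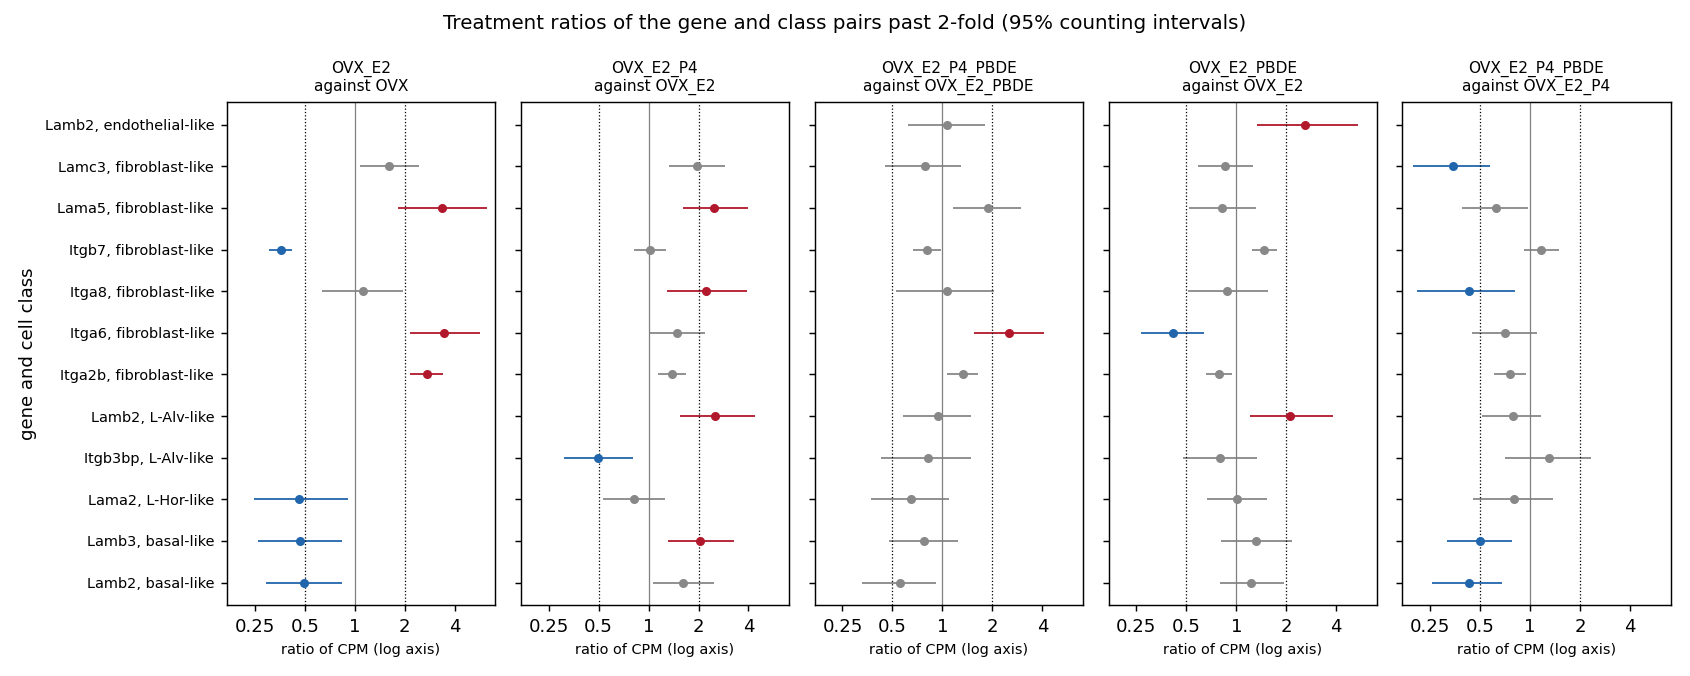
Ratios of CPM (log axis) for 12 gene and class pairs past 2-fold in at least 1 comparison (Lamc1 in basal-like cells is left out), in each of the 5 comparisons, with bars for 95% counting intervals, red where at least 2-fold higher, blue where at least 2-fold lower and grey otherwise. Dotted lines mark 0.5 and 2. No row is red in both progesterone panels or blue in both PBDE panels.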

How the data were processed

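Droplet libraries (10x Genomics 3′ v2 chemistry) from 5 groups, 1 library each, were analysed. Per the labels, the authors made the deposited counts with Cell Ranger 2.0.0 on mm10, as whole UMI counts per gene and barcode. The members and gene lists were chosen with earlier results of these data known.

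From these counts, barcodes with at least 500 genes, at least 1000 UMIs and at most 10% mitochondrial UMIs were kept. Each library was log-normalized (scale 10000) and clustered in Seurat 5.3.0 (R 4.3.3) on 2000 variable genes, 10 principal components and a resolution of 0.3 for OVX and 0.5 otherwise, with the 40 genes left out. For each list, the CPM of each marker past a minimum level was divided by its highest CPM in any cluster of the library. These shares were averaged, and a cluster was named by the class list with the highest average where that reached 0.25. Clusters reaching 0.25 for both luminal lists and for the epithelial list were set aside. Scrublet (scanpy 1.11.5) served as an alternative. UMIs were summed per class and library, with at least 20 cells, and divided by the total to give CPM. Intervals are exact (Poisson for levels, conditional binomial for ratios) at 95% and cover counting error only. No p-value was computed, since 1 library per group leaves no replicate. The ratio code was tested on simulated counts. TMM factors came from edgeR 4.0.16 and median-ratio factors from DESeq2 1.42.0, used for scaling alone. Values in each library are given for the up to 5 genes with the highest level in each class, for the sorting antigens, Lama3 and Lamb3, and for the up to 3 largest and 3 smallest ratios past 2-fold in each comparison; other genes named are given by mean or range. Gene spans are from GENCODE M21 (GRCm38). No pericyte class could be formed, and 1 of the 40 genes is counted but not reported here by name.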

Additional observations from a re-analysis of the deposited data

How the results depend on the processing

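Of 40 genes, 36 kept their highest class in 10 of 10 other settings (mitochondrial threshold of 5%, Scrublet, resolution of 1.0, summed cells, thinning to 3000 UMIs and leaving out each library). The exceptions were Itgb1bp2, Itga10, Itgb3bp and Itga5. The count for L-Hor-like cells (1) became 2 when cells were thinned and ranged from 1 to 2 when 1 library was left out, since Itgb3bp moved there without OVX_E2. No value could be given for pericyte-like cells.

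Counts of pairs past 2-fold depended on the minimum of UMIs and on the fold. In the order used in the report (17β-estradiol, progesterone without and with PBDEs, PBDEs without and with progesterone), they were 7, 5, 1, 3 and 5. With at least 20 UMIs they were 13, 12, 8, 6 and 11 of 87 to 120 compared (14.9%, 10.4%, 6.67%, 5% and 9.91%), beside 12.1%, 5.7%, 6.38%, 5.66% and 7.79% of all genes. With at least 100 UMIs they were 2, 2, 0, 0 and 3 of 38 to 59 compared (5.26%, 3.39%, 0%, 0% and 5.77%), beside 4.97%, 1.29%, 1.77%, 1.5% and 2.82% of all genes. At 1.5-fold they were 18, 17, 9, 9 and 16 of 59 to 82 compared (30.5%, 20.7%, 11.2%, 11% and 20.5%), beside 22.8%, 11.9%, 12.6%, 12.7% and 16.7% of all genes. Adding the mixed luminal clusters to L-Hor-like cells gave 11 of 69 for 17β-estradiol (15.9%, beside 6.36% of all genes). For progesterone with PBDEs it gave 2 of 90 (2.22%, beside 2.68%). For PBDEs with both hormones the 5% mitochondrial threshold gave 3 of 74 (4.05%, beside 4.1% of all genes). Scrublet gave 2 of 72 there (2.78%, beside 3.87%). An alternative chosen after seeing the data keeps a gene only in classes at 10% or more of its highest level. In the same order it gave 5 of 56, 5 of 75, 0 of 74, 2 of 76 and 5 of 72 (8.93%, 6.67%, 0%, 2.63% and 6.94%). The shares of all genes beside these are 7.17%, 2.3%, 2.9%, 2.43% and 4.26%. This filter was not applied to all genes, so the 2 sets of shares are not alike. Pairs past the threshold in both progesterone comparisons went from 0 to 2 of 76 at 1.5-fold, beside 1.77% of all genes. The cause of these moves was not tested, apart from the minimum and the fold, which change how many pairs can be counted.

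TMM scaling moved the median of all genes by over 0.1 (log2) in 12 of 29 class comparisons, by at most 0.33. Under it the split for 17β-estradiol was 4 higher and 1 lower (4 and 2 with median-ratio factors, 3 and 4 as reported), and for progesterone without PBDEs 5 and 0 (4 and 1 as reported). None of the 96 recomputed ratios of named pairs reversed or left its counting interval. No paired analysis was possible because each group has 1 library.

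Classes with few cells limit the reading: 1 UMI was worth 5.51 CPM in endothelial-like cells of OVX_E2_P4 and 0.0704 CPM in fibroblast-like cells of OVX_E2_PBDE.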

Other observations

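The proliferating luminal cells (290 in all, from OVX_E2, OVX_E2_PBDE and OVX_E2_P4), which belong to no class of the comparisons, held Itga6 at 90.5 CPM, Itgb1 at 70.9 CPM and Lama5 at 19.9 CPM over these libraries. Itgb3bp, a centromere protein gene, stood there at 30.6 CPM, against a mean of 19.5 CPM in L-Hor-like and 11.4 CPM in L-Alv-like cells, which was the highest value of this gene in any group of epithelial barcodes. The 14 B or plasma cells held 81.4 CPM of Itgal and 50.9 CPM of Itga4, from 8 and 5 UMIs.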
